A study of Mus musculus with 20 samples.

Results

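The 10 genes described here were the 3 members of the Gadd45 family (Gadd45a, Gadd45b and Gadd45g) and 7 textbook targets of the tumour suppressor p53 (Cdkn1a, Mdm2, Ccng1, Bax, Btg2, Trp53inp1 and Phlda3), chosen by symbol in mouse liver. All probe sets annotated with one of these symbols alone were taken, which gave 18 probe sets for 9 genes. The table held 45037 probe sets, of which the 34945 with a single symbol covered 18193 genes. Bax had no probe set under its symbol alone in the annotation used and was not analysed here. The 932 probe sets with several symbols were left out and not searched for it. All 9 measured genes passed the filter on dim signals and were tested among 16054 genes, and 17 of their 18 probe sets passed it singly.

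The 20 livers were those of CD-1 males, which are outbred mice, with 5 randomly assigned to each of 4 groups. The PB groups were dosed by mouth every day for 28 or 90 days with phenobarbital sodium at 80 mg/kg/day, and the CMC groups received the methylcellulose vehicle for the same time. RNA of the left lateral lobe, frozen on the day after the last dose, was labelled with biotin, and each mouse gave 1 array. The age of the mice was not given in the sources used here, and the mice dosed for 90 days were killed after a longer time on study, so that duration and age cannot be told apart. The lobe holds all cell types of the liver, and in such bulk samples fewer cells of a type and less RNA per cell cannot be told apart.

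The transcription factor p53 is held at a low level by the ubiquitin ligase Mdm2, itself a p53 target, and is stabilised after DNA damage and other stresses. Its targets halt the cell cycle (Cdkn1a, also called p21, and Btg2), start mitochondrial cell death (Bax), restrain Akt signalling (Phlda3), act in autophagy and stress responses (Trp53inp1), or feed back on the pathway (Mdm2 and Ccng1). The Gadd45 proteins are small acidic stress sensors that bind the kinase Map3k4, PCNA and cyclin-dependent kinases. Gadd45a is a p53 target, whereas Gadd45b is known in liver as a gene induced early by ligands of the constitutive androstane receptor (CAR), the nuclear receptor that phenobarbital activates, and Gadd45g as a gene induced by cytokines and growth signals.

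Established CAR targets were higher in PB. Of 9 tested CAR targets kept as a reference, 6 were called higher in PB than in CMC at 28 days and 7 at 90 days, among them the cytochrome P450 gene Cyp2b10, higher by 4.90 ± 0.62 and 5.88 ± 0.62 log2 units (± SE of the limma model, n = 5 mice per group). Of 8 hepatocyte markers 6 were measured, and their mean level lay between 12.6 and 14.1 log2 units on all 20 arrays. The first principal component of the arrays held 55.6% of the variance, and 2 arrays stood at its low end, PB 28 days replicate 5 (score -107.9) and PB 90 days replicate 3 (-65.2), where the next array lay at -39.8. Differences of the members between PB and CMC that moved by over 1.5 times without these 2 arrays are given both ways. Differences of all other genes are given for all 20 arrays only, and how far they rest on these 2 was not tested.

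To show what lies just before their starts, the upstream sequences of 5 of the members are printed below. These are the 250 bases upstream of the RefSeq start (build GRCm38.p6), each written 5′ to 3′ on the strand of the gene. The Gadd45b window lies at chr10:80929841-80930090 (plus strand), that of Gadd45g at chr13:51846425-51846674 (plus), the distal start of Cdkn1a at chr17:29090729-29090978 (plus), Mdm2 at chr10:117710759-117711008 (minus) and Ccng1 at chr11:40755287-40755536 (minus). Capitals mark the p53 decamer, the unit of which a p53 response element holds a pair, or the E-box CACGTG.
Gadd45b: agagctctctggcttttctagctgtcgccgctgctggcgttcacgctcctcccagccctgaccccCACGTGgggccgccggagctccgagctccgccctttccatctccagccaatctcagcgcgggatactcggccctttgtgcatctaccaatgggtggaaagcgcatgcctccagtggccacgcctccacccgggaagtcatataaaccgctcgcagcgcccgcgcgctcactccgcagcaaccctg
Gadd45g: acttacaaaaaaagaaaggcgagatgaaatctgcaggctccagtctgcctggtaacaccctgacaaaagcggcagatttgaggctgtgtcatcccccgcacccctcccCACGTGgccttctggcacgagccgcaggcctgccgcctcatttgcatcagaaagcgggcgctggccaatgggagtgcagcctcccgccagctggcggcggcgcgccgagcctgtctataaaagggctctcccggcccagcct
Cdkn1a: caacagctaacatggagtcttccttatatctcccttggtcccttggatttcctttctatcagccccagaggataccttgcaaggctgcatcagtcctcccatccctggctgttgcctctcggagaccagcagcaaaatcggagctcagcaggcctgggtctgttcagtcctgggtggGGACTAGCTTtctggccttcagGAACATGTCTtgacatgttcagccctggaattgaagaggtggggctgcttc
Mdm2: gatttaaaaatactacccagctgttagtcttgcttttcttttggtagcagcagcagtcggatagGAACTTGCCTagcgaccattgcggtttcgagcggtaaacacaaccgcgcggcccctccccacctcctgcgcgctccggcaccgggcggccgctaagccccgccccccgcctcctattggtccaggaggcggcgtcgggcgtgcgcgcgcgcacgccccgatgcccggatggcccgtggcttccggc
Ccng1: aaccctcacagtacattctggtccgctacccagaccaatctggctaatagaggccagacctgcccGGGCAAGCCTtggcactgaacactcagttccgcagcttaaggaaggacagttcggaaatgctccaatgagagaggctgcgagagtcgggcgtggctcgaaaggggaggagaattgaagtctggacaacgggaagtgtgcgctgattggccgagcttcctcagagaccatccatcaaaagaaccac
The upstream windows of Gadd45b and Gadd45g held the E-box and no p53 decamer, whereas those of Cdkn1a, Mdm2 and Ccng1 held the decamer, with 2 matches in Cdkn1a. Motifs were searched on both strands of the 250 upstream bases of every window, and a palindrome counted once. RefSeq windows were found for 9 of the 10 genes, with 2 starts for Cdkn1a. The decamer was in 5 of these 10 windows (Gadd45a, Bax, Mdm2, Ccng1 and the distal start of Cdkn1a) and in 7.126% of all 32851 windows. The windows not printed thus include that of Gadd45a, a Gadd45 gene with the decamer. They also include those of Btg2, Phlda3 and the proximal start of Cdkn1a, p53 targets without it there. CACGTG was in 3 (Bax, Gadd45b and Gadd45g) against 6.021% of all windows, AGGTCA, the nuclear receptor core, in 1 (Btg2) against 14.02%, TGACGTCA, the cyclic AMP element, in 1 (Btg2) against 1.546%, and TTCNNNGAA, the STAT element, in 0 against 7.02%. These matches are letters in a window and say nothing of whether a factor bound there.

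None of the 9 genes was called between PB and CMC. All counts here take the brightest probe set of each gene. At 28 days 0 members had an adjusted p under 0.05 in limma (Benjamini-Hochberg over all genes), where 0.0498% of all genes did, and 0 had an unadjusted p under 0.05, where 2.86% did. At 90 days the counts were 0 against 0.143% and 0 against 4.53% of all genes. With the 2 durations averaged, 0 were called against 0.212% of all genes, and 2 had an unadjusted p under 0.05, Gadd45b (higher) and Gadd45g (lower), where 6.6% of all genes did. The median difference of the 9 members was -0.05 log2 units at 28 days and 0.17 at 90 days, beside -0.0016 and 0.03 over all genes tested, and 4 and 5 of the 9 were positive, beside 49.6% and 56.2% of all genes.

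**Figure D1:**
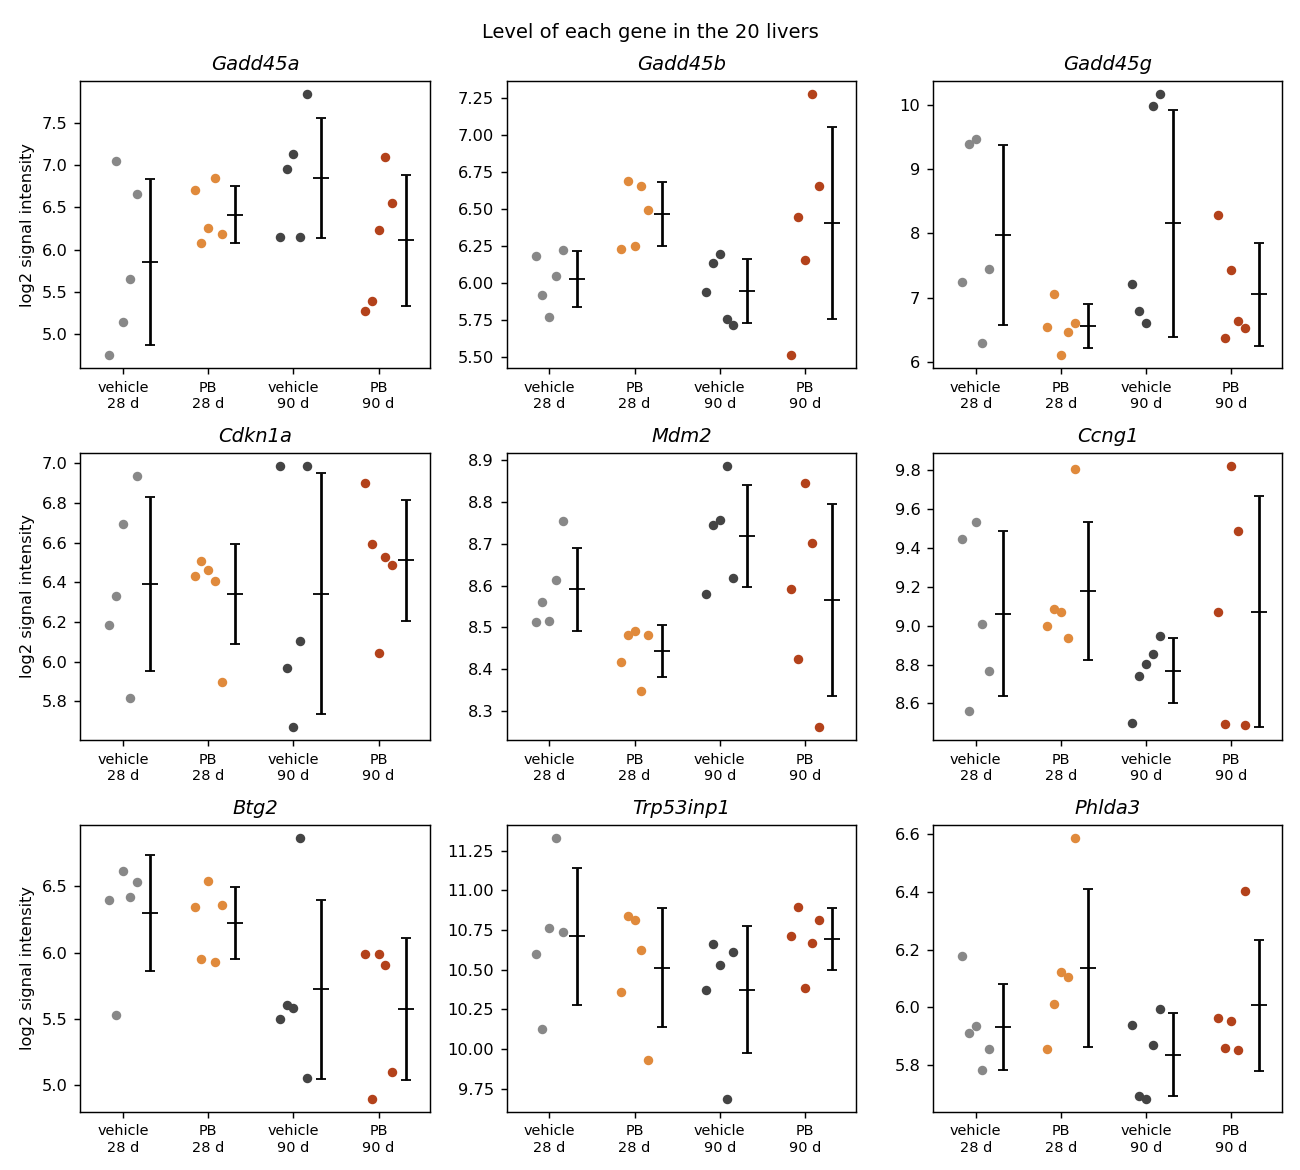
Log2 signal intensity (vertical axes) of the probe set that represents each of the 9 measured genes, with 1 point per liver in the 4 groups and bars for mean ± SD (n = 5). The CMC livers of Gadd45g spread from 6.30 to 10.2, whereas those of Mdm2 stay between 8.51 and 8.89.

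Gadd45b had a higher mean in PB than in CMC at both durations and was not called. The probe set that stood for the gene, the brightest of its 3, read 6.18, 5.92, 5.77, 6.04 and 6.22 in the CMC livers of 28 days and 6.23, 6.69, 6.25, 6.65 and 6.49 in the PB livers. At 90 days it read 5.93, 6.14, 6.20, 5.76 and 5.71 in CMC and 5.51, 6.44, 6.15, 7.28 and 6.65 in PB. At 28 days every PB liver lay above every CMC liver, the nearest being 6.23 and 6.22, whereas at 90 days PB replicate 1 was the lowest liver of either group and PB replicate 4 the highest. The PB mean exceeded the CMC mean by 0.44 ± 0.22 log2 units at 28 days (adjusted p = 1.0 in limma) and by 0.46 ± 0.22 at 90 days (adjusted p = 0.816 in limma). Averaged over the 2 durations the difference was 0.45 ± 0.16 (adjusted p = 0.622 in limma), which is 1.36-fold with a 95% interval from 1.09 to 1.71. Without PB 90 days replicate 1 this average was 0.56 (adjusted p = 0.127 in limma), and without PB 90 days replicate 4 it was 0.34, with 0.24 for the 90-day difference alone.

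The 3 probe sets of Gadd45b did not give the same picture. The second, of the kind that also matches related transcripts (_s_at), read 5.00, 4.80, 4.38, 5.24 and 5.69 in CMC and 5.37, 5.96, 5.73, 6.60 and 5.96 in PB at 28 days, a difference of 0.90 ± 0.26 (adjusted p = 1.0 in limma over 35662 probe sets), and the groups overlapped. Its unadjusted p at 28 days was 0.0021 in limma, where that of the brightest probe set was 0.066 in the same fit. At 90 days its difference was 0.20 ± 0.26. Averaged over the durations it was 0.55 ± 0.18 (unadjusted p = 0.0065, adjusted p = 0.72 in limma). The third differed by -0.04 ± 0.13 at 28 days and 0.20 ± 0.13 at 90 days, with all 20 livers between 5.57 and 6.40. Among mice of the same group the first and second probe sets moved together (r = 0.75, adjusted permutation p = 0.0002, rho = 0.70, adjusted p = 0.0061 over 12 probe set pairs, 20 arrays), whereas the third gave r = 0.34 and 0.43 with them and did not pass.

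**Figure D2:**
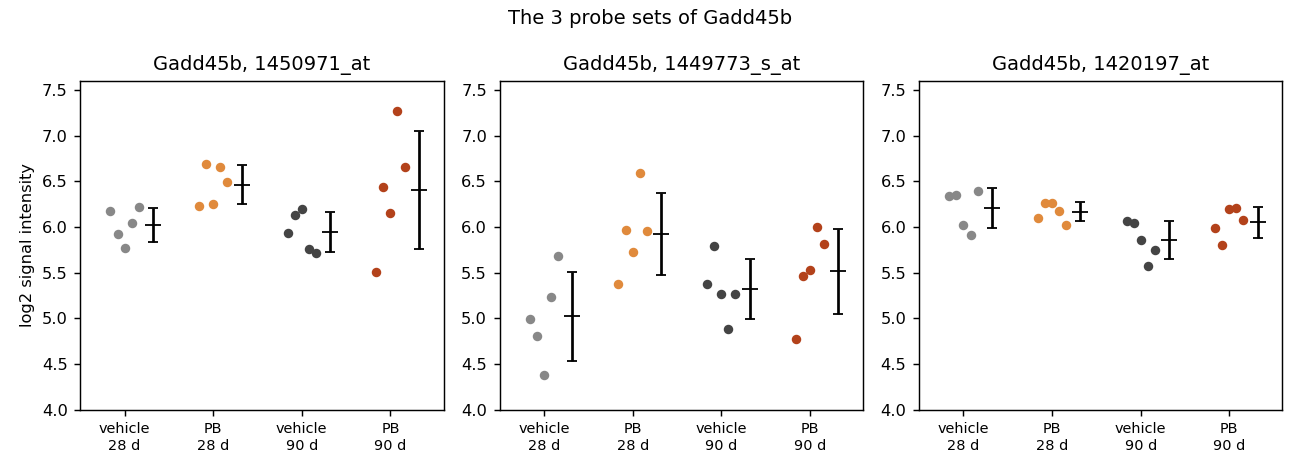
Log2 signal intensity of the 3 probe sets of Gadd45b in each liver, by group, with mean ± SD (n = 5). The PB livers of 28 days lie above all CMC livers of 28 days in the left panel, overlap them in the middle panel, and lie among them in the right panel.

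Markers of blood cells were set beside Gadd45b because the gene is also active in leukocytes. The mean level of 8 tested neutrophil genes was 5.18 to 5.50 in CMC and 5.81 to 6.27 in PB at 28 days, and 4.83 to 5.20 in CMC and 5.08 to 6.23 in PB at 90 days. The largest difference of the 8 was that of S100a8, a calcium-binding protein of neutrophils, which was higher in PB by 5.06 ± 1.13 at 28 days (adjusted p = 0.248 in limma) and by 6.28 ± 1.13 at 90 days (adjusted p = 0.0163). The other 7 genes differed by between -0.15 (S100a9, the partner of S100a8) and 0.28 (Cxcr2) at 28 days, and none of them passed an unadjusted p of 0.05 at either duration. Of all genes, 49.6% were positive at 28 days and 56.2% at 90 days. The 9 tested lymphocyte markers were all positive at both durations with medians of 0.18 and 0.22, and 0 were called or had an unadjusted p under 0.05 in limma. Their part in the Gadd45b values was not tested.

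Gadd45g had a lower mean in PB at both durations and was not called, and its level varied more between mice than that of almost any other gene. It read 7.24, 9.39, 9.47, 6.30 and 7.45 in CMC and 6.55, 7.05, 6.10, 6.47 and 6.61 in PB at 28 days. At 90 days it read 7.21, 6.80, 6.60, 9.99 and 10.17 in CMC and 8.28, 6.37, 7.44, 6.64 and 6.52 in PB. In both CMC groups 2 livers stood above 9, and the other 3 lay between 6.30 and 7.45, inside the range of the 10 PB livers (6.10 to 8.28). The groups overlapped at both durations. The difference was -1.41 ± 0.69 at 28 days (adjusted p = 1.0 in limma), -1.11 ± 0.69 at 90 days (adjusted p = 0.816) and -1.26 ± 0.49 averaged (95% interval -2.28 to -0.24, adjusted p = 0.68). Without CMC 90 days replicate 4 or 5, the 2 livers above 9, the 90-day difference was -0.65 or -0.60. The pooled SD within groups was 1.21 log2 units, above that of 99.64% of the genes tested, whose median SD was 0.27.

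The gene whose pattern was most like that of Gadd45g among 16053 others was Myc, the growth-related transcription factor (r = 0.88 over 20 arrays centred on their group means, 0.83 without the 2 arrays farthest from the median). This look-up was added after the values of Gadd45g had been seen, and no p is given for such a ranking. Myc stood at 7.68 and 7.46 in the 2 CMC livers of 90 days with the most Gadd45g and at 6.92 and 6.64 in those of 28 days. In the remaining 16 livers Myc stayed at or below 6.64. Alg12, a mannosyltransferase of the glycosylation pathway (r = 0.87), and Tmed3, a protein of vesicle transport (r = 0.84), came next. Myc is also 1 of the 22 tested immediate early genes given below. Over those 22 genes the r with Gadd45g had a median of -0.05 and was positive for 10. It ran from -0.52 (Junb) to 0.88 (Myc).

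**Figure D3:**
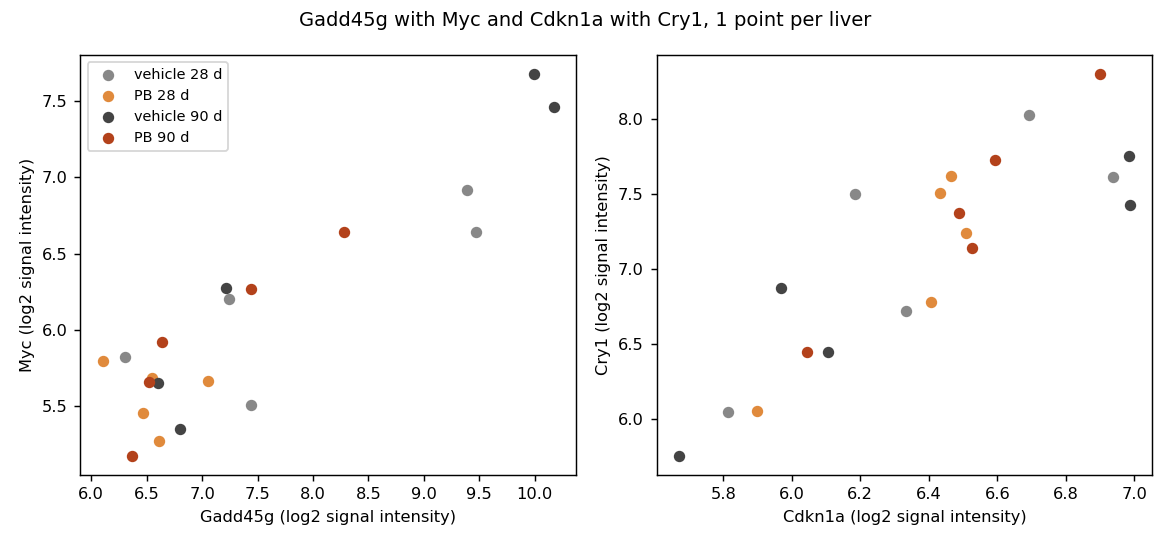
Left, Myc against Gadd45g, and right, Cry1 against Cdkn1a, both axes in log2 signal intensity with 1 point per liver, coloured by group. The 4 CMC livers with Gadd45g above 9 hold Myc between 6.64 and 7.68, and Cry1 tends to rise with Cdkn1a. In PB at 28 days 4 livers lie between 6.41 and 6.51 in Cdkn1a, and replicate 5 lies apart at 5.90, with Cry1 at 6.05.

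Gadd45a gave opposite signs at the 2 durations without passing the threshold at either. It read 4.75, 7.05, 5.14, 5.65 and 6.66 in CMC and 6.71, 6.08, 6.25, 6.85 and 6.19 in PB at 28 days. At 90 days it read 6.15, 6.96, 7.13, 6.15 and 7.84 in CMC and 5.27, 5.39, 6.23, 7.10 and 6.55 in PB. The CMC livers of 28 days included the 2 lowest values of all 20, the groups overlapped at both durations, and the highest value was a CMC liver of 90 days. The difference was 0.56 ± 0.42 at 28 days (95% interval -0.32 to 1.45) and -0.74 ± 0.42 at 90 days (-1.62 to 0.15). The 28-day value was 0.29 without CMC replicate 1 and 0.86 without CMC replicate 2, and the 90-day value was -0.49 without CMC replicate 5. The test of the difference between these effects gave -1.30 ± 0.60 (adjusted p = 1.0 in limma). In that comparison 0 of 9 members were called against 0% of all genes, and Gadd45a was the only member with an unadjusted p under 0.05, where 1.38% of all genes had one. Markers of Kupffer cells and macrophages, the resident phagocytes of the liver, turned sign in the same way: of 9 tested, 8 were positive at 28 days (median 0.17) and 1 at 90 days (median -0.28), and 0 were positive for the difference between the effects (median -0.36). Of all genes, 49.6%, 56.2% and 52.3% were positive in these comparisons, and 2.86%, 4.53% and 1.38% had an unadjusted p under 0.05. None of these markers was called in limma, with 0, 2 and 0 at an unadjusted p under 0.05. In CMC at 90 against 28 days they went the other way from Gadd45a: 0 of the 9 were positive (median -0.32), whereas Gadd45a was higher by 1.0 ± 0.42. Their part in the Gadd45a values was not tested.

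Between 28 and 90 days Gadd45a differed by 1.0 ± 0.42 in CMC (adjusted p = 0.636 in limma). By the brightest probe set of each gene, it was the only member of 9 with an unadjusted p under 0.05, beside 5.69% of all genes. The third probe set of Gadd45b gave -0.35 ± 0.13 (unadjusted p = 0.014, adjusted p = 0.672 in limma), where its brightest gave -0.08 ± 0.22. The counts of members called and of members whose groups did not overlap were 0 and 0, beside 0% and 2.33% of all genes.

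Among the direct p53 targets, Cdkn1a did not separate the groups. Its brighter probe set read 6.18, 6.33, 6.69, 5.81 and 6.94 in CMC and 6.43, 6.51, 6.46, 6.41 and 5.90 in PB at 28 days, and 6.98, 5.97, 5.67, 6.11 and 6.99 in CMC and 6.90, 6.59, 6.04, 6.53 and 6.49 in PB at 90 days. Single mice of both CMC groups held the highest values and single mice of 3 groups the lowest, so that the groups overlapped throughout. The differences were -0.05 ± 0.25 at 28 days (95% interval -0.57 to 0.47) and 0.17 ± 0.25 at 90 days (-0.36 to 0.69). Without PB 28 days replicate 5, the array lowest on the first principal component, the 28-day difference was 0.061, and without PB 90 days replicate 3 the 90-day difference was 0.28. The second probe set followed the first among mice of the same group (r = 0.84, adjusted permutation p = 0.0036, rho = 0.82, adjusted p = 0.0027). Its differences between PB and CMC were -0.07 ± 0.32 at 28 days and -0.05 ± 0.32 at 90 days, the latter opposite in sign to the first.

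The genes most like Cdkn1a were Cry1, a repressor of the circadian clock (r = 0.86, and 0.80 without the 2 arrays farthest from the median), Tubb2a, a beta tubulin (r = 0.85), and Lgalsl, a galectin-like protein (r = 0.84), with no p given. For Gadd45b they were Asic2, an ion channel subunit (r = 0.78), Tshb, a hormone subunit (r = 0.75), and Xrcc3, a gene of homologous recombination (r = 0.75). Without the 2 arrays farthest from the median these became 0.33, 0.35 and 0.59, so that the likeness to Asic2 and Tshb rested on those arrays.

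Mdm2, the ligase that restrains p53, varied least of the 9 between mice and was not called. It read 8.51, 8.56, 8.52, 8.61 and 8.75 in CMC and 8.42, 8.48, 8.49, 8.35 and 8.48 in PB at 28 days, and 8.58, 8.75, 8.76, 8.89 and 8.62 in CMC and 8.59, 8.42, 8.84, 8.70 and 8.26 in PB at 90 days. At 28 days every PB liver lay below every CMC liver, the nearest being 8.49 and 8.51, and at 90 days the groups overlapped. The difference was -0.15 ± 0.13 at both durations (95% interval -0.42 to 0.13 at 28 days and -0.42 to 0.12 at 90 days). The model's SE exceeds what the spread of this gene alone would give, because limma draws the variance of each gene towards that of genes of like intensity, and the pooled SD of Mdm2, 0.14, was above that of 3.308% of genes only. In all, 2 of the 9 members did not overlap between PB and CMC at 28 days, Gadd45b and Mdm2 in opposite directions, beside 0.542% of all genes, and 0 at 90 days, beside 1.07%. The second probe set of Mdm2 overlapped at 28 days (difference -0.14 ± 0.15), and the third did not pass the filter. Among mice of the same group the 3 pairs of Mdm2 probe sets gave r of 0.06, 0.11 and -0.36 (adjusted permutation p of 0.291 or more). Without PB 90 days replicate 5 the 90-day difference was -0.076.

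Ccng1, cyclin G1, was not called between treatments and followed the first principal component of the arrays. It read 9.44, 8.56, 9.53, 9.01 and 8.76 in CMC and 9.0, 9.08, 9.07, 8.94 and 9.80 in PB at 28 days. At 90 days it read 8.50, 8.74, 8.80, 8.85 and 8.95 in CMC and 9.07, 8.50, 9.82, 9.49 and 8.49 in PB. The highest values, 9.80 and 9.82, belonged to the 2 arrays at the low end of the first principal component, and the groups overlapped. The differences were 0.12 ± 0.26 at 28 days and 0.30 ± 0.26 at 90 days, and without those 2 arrays they were -0.041 and 0.12. Among mice of the same group Ccng1 fell as the component's score rose (r = -0.86, permutation p = 0.0002, adjusted p = 0.0018 over 9 members, rho = -0.81, adjusted p = 0.0035), and r was -0.79 without the 2 arrays farthest from the median. The other 8 members had adjusted p-values of 0.204 or more with this component. The sign of the component was set so that its score rose with the 75th percentile of signal on the array. That percentile was 6.62 in PB 28 days replicate 5 and 6.81 in PB 90 days replicate 3. It was 7.17 in PB 90 days replicate 2, where the score was 44.2. What this component stands for, in the livers or in the arrays, was not tested. The component was drawn from all genes tested, Ccng1 among them. How many other genes followed it as closely was not counted. The 3 probe sets of Ccng1 moved together, with r between 0.85 and 0.88 for each of the 3 pairs. With the first principal component removed, these r were 0.44, 0.66 and 0.55.

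Btg2, an antiproliferative gene that is also induced early by growth signals, was called in no comparison, and its brighter probe set had lower means at 90 than at 28 days. It read 6.40, 5.53, 6.61, 6.42 and 6.53 in CMC and 6.35, 5.95, 6.54, 5.93 and 6.35 in PB at 28 days. At 90 days it read 5.50, 5.61, 5.58, 6.86 and 5.06 in CMC and 5.99, 4.90, 5.99, 5.91 and 5.10 in PB. In CMC 4 of the 5 livers of 90 days lay at or below 5.61 and the remaining one held the highest value of all 20, while in PB the 2 durations overlapped only between 5.93 and 5.99. The difference of PB from CMC was -0.07 ± 0.29 at 28 days and -0.15 ± 0.29 at 90 days, the latter -0.25 without PB 90 days replicate 3. Between 90 and 28 days it was -0.57 ± 0.29 in CMC and -0.65 ± 0.29 in PB (adjusted p = 0.971 in limma), and the second probe set gave -0.06 ± 0.15 and -0.30 ± 0.15. The 2 probe sets of Btg2 gave r = 0.45 (adjusted permutation p = 0.267, rho = 0.10).

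Between 90 and 28 days in PB, 0 members were called beside 0.00623% of all genes, 0 did not overlap beside 0.635%, and Btg2 was the only one of 9 with an unadjusted p under 0.05, beside 4.23% of all genes. The Kupffer cell and macrophage markers had the same sign at both treatments. All 9 had lower means in CMC at 90 than at 28 days (median -0.32, 1 with an unadjusted p under 0.05 and 0 called in limma), with mean levels from 7.36 to 8.58 and from 6.95 to 8.36. All 9 also had lower means in PB at 90 than at 28 days, with a median of -0.92 against 0.0015 over all genes, 6 with an unadjusted p under 0.05 and 0 called in limma. Their mean level ranged from 7.84 to 8.43 in PB at 28 days and from 6.98 to 7.96 at 90 days, and their part in the Btg2 values was not tested.

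Trp53inp1, the stress-induced gene of autophagy, and Phlda3, the Akt repressor, did not separate the groups. Trp53inp1 read 10.60, 10.13, 10.76, 11.33 and 10.74 in CMC and 10.36, 10.84, 10.81, 10.62 and 9.93 in PB at 28 days. At 90 days it read 10.37, 10.66, 10.53, 9.69 and 10.61 in CMC and 10.71, 10.90, 10.39, 10.67 and 10.81 in PB. The groups overlapped at both durations, and the differences were -0.20 ± 0.23 and 0.32 ± 0.23. The 28-day value was -0.053 without PB replicate 5, -0.043 without CMC replicate 4 and -0.34 without CMC replicate 2, and the 90-day value was 0.15 without CMC replicate 4. The dimmer second probe set of Trp53inp1 lay between 3.6 and 4.80 in all 20 livers, and its r with the first was -0.24 (adjusted permutation p = 0.44). Its differences were -0.06 ± 0.17 at 28 days and -0.12 ± 0.17 at 90 days, the latter opposite in sign to the first. Phlda3 read 6.18, 5.91, 5.93, 5.78 and 5.85 in CMC and 5.85, 6.01, 6.12, 6.11 and 6.59 in PB at 28 days, and 5.94, 5.69, 5.68, 5.87 and 6.0 in CMC and 5.96, 5.86, 5.95, 5.85 and 6.40 in PB at 90 days. In each PB group replicate 5 was the highest of all, the groups overlapped, and the differences were 0.20 ± 0.14, 0.17 ± 0.14 and, averaged, 0.19 ± 0.10 (adjusted p = 0.72 in limma). Without PB replicate 5 of the same duration the differences were 0.092 at 28 days and 0.071 at 90 days.

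**Figure D4:**
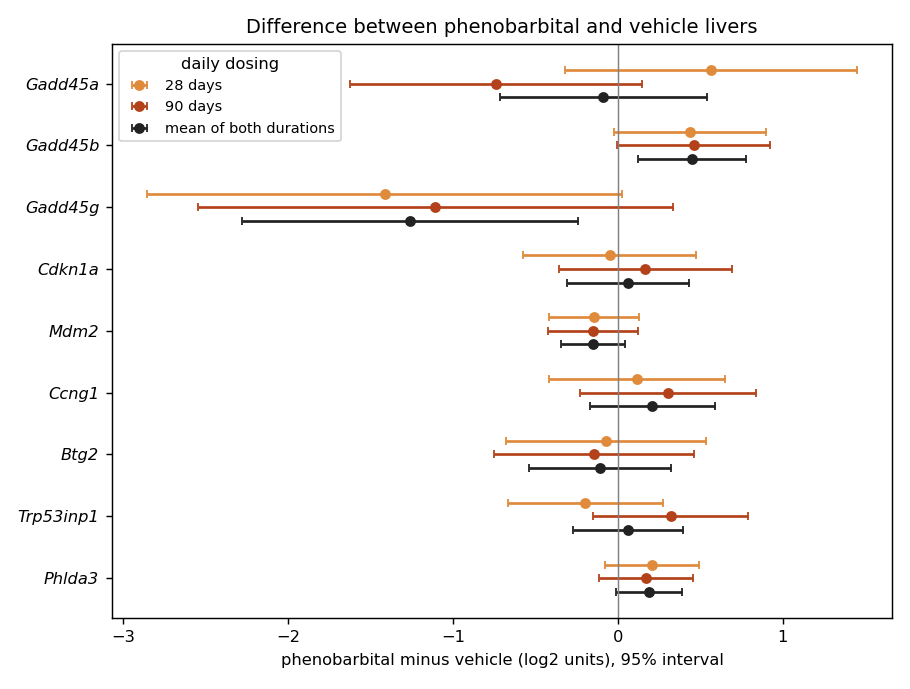
Difference between PB and CMC livers in log2 units (horizontal axis) for the 9 genes at 28 days, at 90 days and averaged, with 95% intervals of the limma model. The averaged intervals of Gadd45b and Gadd45g leave out 0, on opposite sides, and neither gene is called after adjustment over all genes.

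The intervals give the sizes of difference that these 20 arrays leave possible. They are those of the brightest probe set of each gene unless said otherwise. At 28 and at 90 days the 95% interval lay within 1 log2 unit of 0 for 7 of the 9 genes. The exceptions were Gadd45a and Gadd45g. Averaged, the interval lay within it for 8 of the 9, all but Gadd45g. The second probe set of Gadd45b gave a 95% interval from 0.37 to 1.44 at 28 days, which reached beyond 1 log2 unit. For Cdkn1a, Mdm2, Phlda3 and Trp53inp1 the averaged interval of the brightest probe set stayed between -0.34 and 0.43. That of the second probe set of Cdkn1a ran from -0.53 to 0.41. Without the 2 arrays at the low end of the first principal component, the averaged difference went from 0.21 to 0.038 for Ccng1, from 0.06 to 0.17 for Cdkn1a and for Trp53inp1, and from -0.11 to -0.18 for Btg2. A p that misses the threshold does not show that a gene stayed at its level.

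The members did not vary as a group among mice that had received the same treatment. Of 36 pairs of members, 0 had an adjusted permutation p under 0.05, with r from -0.52 to 0.67 and a median of -0.03, and 3 pairs had an unadjusted p under 0.05 by Pearson's r. Mdm2 and Btg2 gave r = 0.67 (permutation p = 0.00677, adjusted p = 0.122, rho = 0.74, adjusted p = 0.0767, and r = 0.67 without the 2 arrays farthest from the median). Gadd45b and Gadd45g gave r = -0.52 (permutation p = 0.00305, adjusted p = 0.11, rho = -0.55, adjusted p = 0.223, and r = -0.61 without those 2). Ccng1 and Btg2 gave r = 0.53 (adjusted permutation p = 0.246). Cdkn1a and Mdm2, the best known targets, gave r = -0.30.

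**Figure D5:**
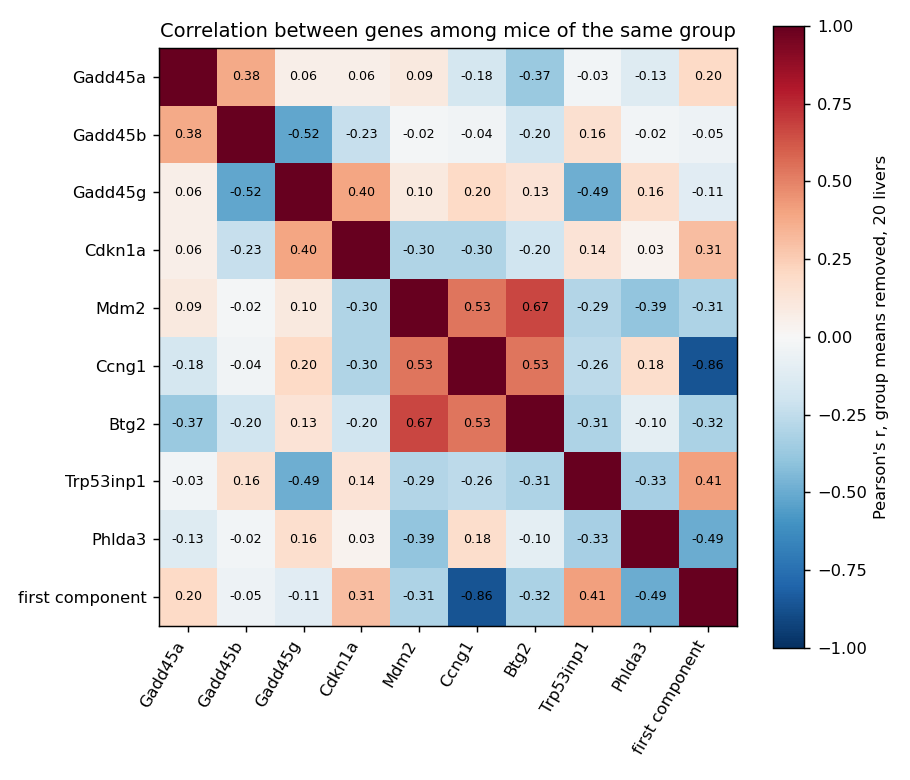
Pearson's r between the 9 genes and the first principal component over 20 livers after removal of the group means, as colour and number. The strongest value is that of Ccng1 with the component (-0.86), and no pair of genes passes the threshold after adjustment.

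No gene of the wider lists on this pathway was called at either duration. The list counts in this and the following paragraphs stand beside these shares over all genes tested. At 28 days 49.6% were positive and 2.86% had an unadjusted p under 0.05 in limma. At 90 days the shares were 56.2% and 4.53%. Of 46 other p53 targets 43 were tested, 21 were positive at each duration, and the medians were -0.0059 at 28 days and -0.015 at 90 days. None was called in limma, and 2 at 28 days and 2 at 90 days had an unadjusted p under 0.05. These with the smallest p were Ak1, adenylate kinase, at 0.44 ± 0.17 (90 days), and Ccnk, cyclin K, at 0.25 ± 0.11 (28 days), among positive differences. Zmat3, an RNA-binding p53 target, stood at -0.98 ± 0.35 at 90 days (adjusted p = 0.816 in limma), and the stress kinase gene Plk3 at -0.94 ± 0.48 at 28 days.

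Of 23 tested regulators of p53 and DNA damage kinases, 8 were positive at 28 days and 9 at 90 days, 0 were called in limma, and 0 and 1 had an unadjusted p under 0.05. The checkpoint kinase gene Chek2 gave 0.43 ± 0.18 and Brca1 0.31 ± 0.15 at 90 days, and Trp53bp2, a p53-binding protein, gave -0.42 ± 0.23 and the kinase gene Hipk2 -1.30 ± 0.78. Of 15 tested partners of the Gadd45 proteins and MAP kinases, 5 and 6 were positive, and 0 had an unadjusted p under 0.05 or were called in limma at either duration. The smallest p-values there were those of Map2k6 (0.35 ± 0.25), Cdk1 (0.28 ± 0.24), Map3k5 (-0.71 ± 0.40) and the CAR partner Rxra (-0.82 ± 0.55), all at 90 days.

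Among 18 cyclins, CDKs and CDK inhibitors other than Cdkn1a, 7 and 10 were positive, 0 were called in limma, and 1 at each duration had an unadjusted p under 0.05. Cdk2, the kinase that p21 inhibits, gave -0.58 ± 0.22 at 28 days, and cyclin G2 (Ccng2) gave 0.81 ± 0.36 at 90 days, where the CDK inhibitor gene Cdkn2c gave 0.57 ± 0.28 and cyclin D1 (Ccnd1) -0.27 ± 0.15. Of 17 tested genes of the Bcl2 family and its effectors, 9 and 12 were positive, 0 were called in limma, and 0 and 2 had an unadjusted p under 0.05. These were Bok and Bik, 2 genes that promote cell death, at 0.82 ± 0.23 and 0.75 ± 0.33 at 90 days, and the smallest p among negative differences belonged to Diablo (-0.28 ± 0.16 at 28 days) and Bcl2l13 (-0.59 ± 0.44 at 90 days).

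Immediate early genes were listed because Gadd45b, Gadd45g and Btg2 share their fast induction. Of 22 tested, 8 were positive at 28 days and 11 at 90 days, 0 were called in limma, and 3 and 0 had an unadjusted p under 0.05. Ier3 (0.35 ± 0.14), Klf6 (0.44 ± 0.19), Socs3 (-1.55 ± 0.74), the feedback inhibitor of cytokine signalling, and Jun (-0.30 ± 0.18) had the smallest p, all at 28 days. Of 18 glucocorticoid and fasting response genes, 4 and 10 were positive, 0 were called in limma, and 2 at each duration had an unadjusted p under 0.05. The metallothioneins Mt1 and Mt2 gave 2.41 ± 0.98 and 2.51 ± 1.02 at 90 days, and the kinase gene Sgk1 gave -0.64 ± 0.26 and the aminotransferase gene Tat -0.88 ± 0.45 at 28 days.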

How the data were processed

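The deposited table held log2 signal intensities that the authors made with RMA, per the submitters' processing notes. Its version was not given in the sources used here. Values were used as deposited, and differences near background can come out too small. The brightest probe set on average stood for each gene, and genes above the 25th percentile of the array on at least 5 arrays were kept (16054 of 18193). Limma 3.58.1 (R 4.3.3) fitted 1 mean per group to all 20 arrays with an intensity trend. P-values were two-sided and adjusted over all genes (Benjamini-Hochberg), with calls at an adjusted p under 0.05. Correlations used values centred on group means, with 100000 permutations within groups and adjustment within each family. The precision is limited by the number of arrays. On simulated data for the 28-day comparison (200 of 16054 genes changed, 5 runs), 76 to 83% of changes of 1 log2 unit and 94 to 99% of changes of 2 log2 units were recovered. With 200 genes changed the adjustment is more lenient than in the real comparison, where 8 genes were called. The rates are also not those of genes that vary widely, such as Gadd45a and Gadd45g, whose pooled SD stood at percentiles 95.37 and 99.64.

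All members were named, with their probe sets. Of each other list, the genes called were named, or else up to 2 with the smallest p in each direction at either duration. For Gadd45b and Cdkn1a the 3 genes of highest r were named. The members and lists were chosen with earlier results of these data known. Alternatives covered the filter, the probe sets, the variance prior, the arrays fitted, weights, normalization, a replicate block, the first principal component and the removal of each array.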

Additional observations from a re-analysis of the deposited data

Results flagged for a closer look

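Of 72 sets of values, each a probe set in a group of 5 livers, 5 held a liver far from the other 4, and chance gives about 1 in 20. Of these, 3 belonged to PB 28 days replicate 5, the array lowest on the first principal component. In that liver Ccng1 was the highest of its group at 9.80, the brighter probe set of Cdkn1a the lowest at 5.90, and the dim probe set of Mdm2 that did not pass the filter the highest at 4.39. In CMC at 28 days the brighter probe set of Btg2 was lowest in replicate 2, at 5.53. In PB at 90 days Phlda3 was highest in replicate 5, at 6.40.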

How the results depend on the processing

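None of the 31 member differences was called under any of the 22 or 31 alternatives that bore on it, leaving out only arrays of the groups compared. Of 772 alternative values, 746 kept their direction and 26 turned it, all for differences that were small against their error. With the mean of all probe sets, Btg2 at 28 days became 0.012, Cdkn1a averaged over the durations -0.00092 and Trp53inp1 averaged -0.015. Without the 2 arrays at the low end of the first principal component, Ccng1 at 28 days became -0.041 and Cdkn1a 0.061, and with array weights Cdkn1a at 28 days became 0.11. With each array left out in turn, Btg2 ranged from -0.26 to 0.0055 at 28 days, -0.31 to 0.14 at 90 days and -0.21 to 0.033 averaged. Cdkn1a ranged from -0.19 to 0.086, -0.0013 to 0.33 and -0.026 to 0.14, Ccng1 at 28 days from -0.041 to 0.23, Gadd45a averaged from -0.23 to 0.063 and Trp53inp1 averaged from -0.025 to 0.14. The cause was not tested. Over all alternatives the averaged difference of Gadd45b lay between 0.34 and 0.56 (adjusted p 0.127 to 0.880 in limma) and that of Gadd45g between -1.47 and -1.01 (0.390 to 0.880).

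The replicate numbers did not pair the mice: deviations of same-numbered arrays correlated above 0.1 in 9 of 30 pairs, and 4 of 20 arrays correlated best with their own number. With the replicate number as a block, 0 members were called, and averaged Gadd45b gave 0.45 (adjusted p = 0.761 in limma). Centring on the 75th percentile moved the median of all genes to 0.13 at 90 days. Over all genes, the count called at 28 days was 8, with 4 when only the groups compared were fitted and 17 with array weights, and the averaged count was 34, with 51 when the first principal component was a covariate.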
